A study of Mus musculus with 4 samples.

Results

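The 10 genes followed here were Pax5, Ebf1, Foxo1, Bach2, Tcf3, Spib, Pou2af1, Pou2f2, Bcl11a and Ets1, out of the 32285 genes in each expression matrix. They are transcription factors, or a partner of such factors, with known roles in the B lineage. They were taken by gene symbol, with earlier results of these data known. Each was measured in B cell stages, plasma cells and myeloma cells of mouse bone marrow, with and without purinostat mesylate (PM). In pro-B and large pre-B cells Bcl11a rose after PM and Spib, Bach2, Tcf3 and Foxo1 fell, but none of these changes was called in all alternative analyses. None of the 10 genes passed the test in later B cells. In plasma cells and in myeloma cells only 6 of them were tested in each, and none passed. A direct test of the difference from mature B cells passed for Bcl11a and Pou2f2 but not for Spib, Bach2, Tcf3 or Foxo1. Neither call held in all alternatives of this test, and Spib, Bach2 and Tcf3 each passed in some. Against small pre-B and immature B cells none of the 10 genes passed that test. Pax5 and Ebf1 were not called in any B cell stage.

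B cell identity is set up stepwise by a small network of factors. Tcf3, which encodes the E2A proteins, and Foxo1 act with Ebf1 early, and Ebf1 and its target Pax5 then hold cells in the B lineage and switch on genes of the pre-B cell receptor. Bach2 and Spib restrain the passage to antibody-secreting cells, which lose Pax5, while the coactivator Pou2af1, the partner of the octamer factor Pou2f2, stays in use there. Bcl11a is a zinc finger repressor needed for early lymphoid development, and Ets1 is shared by B, T and natural killer cells.

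The mice were 6-week-old C57BL/KawRij animals that had all received 5TGM1-luc myeloma cells by vein, a mouse myeloma line that grows in the marrow of this strain. After 3 weeks, 2 mice were given vehicle and 2 were given PM, an inhibitor of class I and IIb histone deacetylases, at 10 mg/kg, and marrow was taken 24 h later. One library of single-cell 3' RNA was made per mouse after lysis of red cells, and all groups therefore share the tumour, the strain and the single time point. The myeloma cells come from 1 line, and all of the marrow is that of tumour-bearing mice.

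The libraries held 86052982 and 69828595 UMIs (unique molecular identifiers, one per captured transcript) with vehicle and 109447030 and 74388936 with PM. From 8242 to 13848 barcodes were deposited per library, of which 7826 to 13387 passed the limits of at least 300 genes and at most 20% mitochondrial UMIs. Between 69 and 98 kept barcodes of a library also occurred in another library. Doublet scores marked 6.59% to 11.1% of cells per library. PM replicate 1 stood apart by its neutrophil transcripts, whose summed level was the highest of the 4 libraries in every B, plasma and myeloma population. Vehicle replicate 1 was thin, with 36 pro-B and large pre-B cells. Each member's call is given below with and without the libraries that decided it.

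Cells were clustered without the 10 genes, and clusters were named from marker genes. Pro-B and large pre-B cells (355 cells) held a cycling cluster led by Pclaf, Top2a and Mki67 and a smaller cluster led by Vpreb1 and Dntt. Small pre-B and immature B cells (572 cells) were led by Rag1 and Il7r in the larger cluster, and 396 of them came from vehicle replicate 2. Mature B cells numbered 2389. Plasma cells (266 cells) had 0 UMIs of Rhox5, the gene that marks the myeloma cells here, and the 178 myeloma cells were plasma-like cells with at least 1 Rhox5 UMI. One plasma-like cluster had Rhox5 in 98.8% of 171 cells and the other in 3.27% of 275 cells. Plasma cell markers summed to 245 to 324 per 1000 UMIs in plasma cells and to 15.05 to 21.6 in myeloma cells, and B cell markers to 17.3 to 19.3 in mature B cells. A B cell cluster of 69 cells, led by neutrophil genes, was left without a stage.

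The level of a gene is given as CPM, its UMIs per 1000000 UMIs of a population in 1 library. Over the 4 libraries, 7 of the 10 genes were highest in small pre-B and immature B cells. The mean level of Pax5 was 1207 ± 63.0 CPM there (SD, n = 4 libraries), 960 ± 32.7 in mature B cells and 611 ± 66.7 in pro-B and large pre-B cells, and no neighbouring pair in that order overlapped. Ebf1 reached 5246 ± 480 CPM in small pre-B and immature B cells, and its ranges in pro-B and large pre-B cells and in mature B cells overlapped. Outside the lineage Ebf1 stood at 246 ± 91.3 CPM in CAR cells, the Cxcl12-rich stromal cells of the marrow, above every other non-B population without overlap.

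Bach2 had its top level in small pre-B and immature B cells (2179 ± 455.7 CPM), as did Foxo1 (333 ± 58.2 CPM) and Spib (770 ± 221 CPM). Spib was also present in plasmacytoid dendritic cells (pDC) at 176 ± 37.7 CPM, a range that overlapped that of pro-B and large pre-B cells. Tcf3 and Pou2af1 were highest in the same stage, at 650 ± 58.8 and 753 ± 132 CPM, but both overlapped with pro-B and large pre-B cells. Pou2af1 was the one member whose range in plasma cells (308 ± 121 CPM) overlapped that in mature B cells (420 ± 48.3 CPM), and it stood at 264 ± 69.5 CPM in myeloma cells. These levels depend on the total, since immunoglobulin genes took 53.6% to 62.1% of plasma cell UMIs. Without immunoglobulin UMIs the mean of Pou2af1 was 743 CPM in plasma cells, 428 in mature B cells and 278 in myeloma cells.

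Pou2f2, Bcl11a and Ets1 followed another order. Pou2f2 was highest in mature B cells (998 ± 110 CPM) and next in small pre-B and immature B cells (522 ± 82.8 CPM), without overlap. Bcl11a was highest in pDC (947 ± 171 CPM) and mature B cells (883 ± 160 CPM), whose ranges overlapped, and was also found in megakaryocytes (394 ± 80.4 CPM). Ets1 was led by T cells (922 ± 62.7 CPM), mature B cells (909 ± 167 CPM) and eosinophil and basophil progenitors (906 ± 126 CPM), which overlapped with one another.

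**Figure D1:**
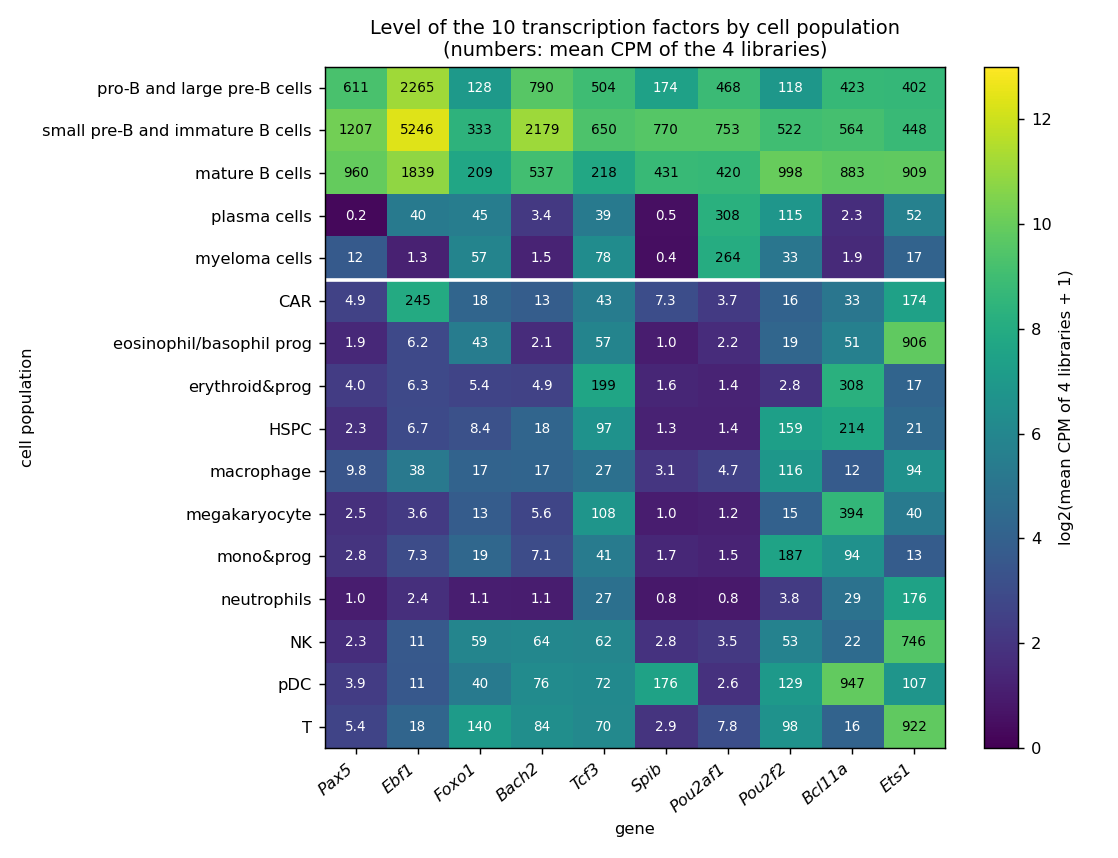
Mean level of each of the 10 genes in CPM over the 4 libraries (number in each cell; colour on the log2(CPM + 1) scale), with genes in columns and 16 cell populations in rows; the white line parts B, plasma and myeloma cells from the other cell types. Pax5 falls from 1207 CPM in small pre-B and immature B cells to 0.2 CPM in plasma cells, whereas Pou2af1 stays at 308 CPM there (743 CPM without immunoglobulin UMIs).

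The genes most like each member in level across the 16 populations were sought among 10527 genes by Pearson's r of log2(mean CPM + 1), a description over populations that come from the same 4 libraries. Vpreb3, a B cell marker gene used here, was among the nearest 3 genes of Ebf1 (r = 0.945). Pax5 was most like Fam129c (r = 0.961) and Bach2 most like Cnp (r = 0.936), with Cd22, an inhibitory B cell receptor gene, among its nearest 3 (r = 0.916). Tcf3 was most like Bcl7a (r = 0.984), Spib most like Snn (r = 0.937) and Foxo1 most like Birc2 (r = 0.901). For Pou2af1, the nearest were Gm30211 (r = 0.973) and Syvn1 (r = 0.972), a ligase gene of protein quality control in the endoplasmic reticulum. Pou2f2 was nearest to Filip1l (r = 0.894), Bcl11a to Med16 (r = 0.911) and Ets1 to Tbc1d10c (r = 0.924).

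The first comparison asked how PM moved the 10 genes in pro-B and large pre-B cells. UMIs were summed per library (172172 and 1068868 with vehicle, 928083 and 737600 with PM) and tested with edgeR's quasi-likelihood test over 8124 genes, with Benjamini-Hochberg adjustment. To be called, a gene needed an adjusted p under 0.05 and a log2 fold change beyond 0.5 in either direction. Of the 10 members, 1 was called higher and 4 lower, where 4.42% of all tested genes were called (2.33% higher and 2.09% lower). The median log2 fold change of the members was -0.52, against 0.00 over all genes. DESeq2 called 3 of the 10 (Bcl11a, Spib and Bach2), and so did edgeR with called doublets removed. Doublet scores marked 15.2% of the cells in the cycling cluster.

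Bcl11a was the gene that rose. Its level was 331 and 238 CPM in the vehicle libraries and 612 and 512 CPM in the PM libraries. Both PM libraries lay above both vehicle libraries. The log2 fold change was 1.10 (SE 0.23, adjusted p = 0.00628 by edgeR's quasi-likelihood test). Leaving out vehicle replicate 2 ended the call (0.90 on the log2 scale, adjusted p = 0.116), while it held in the other 12 of 13 alternative analyses.

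Spib and Bach2, which restrain plasma cell differentiation, both fell. Spib was at 261 and 226 CPM with vehicle and at 75.4 and 133 CPM with PM, with no overlap between the groups. Its log2 fold change was -1.16 (SE 0.25, adjusted p = 0.00912, edgeR). Bach2 was at 1057 and 1026 CPM with vehicle and at 432 and 643 CPM with PM, so that PM replicate 1 was the lowest library for both genes. Its log2 fold change was -0.89 (SE 0.22, adjusted p = 0.0198, edgeR). Neither gene was called when vehicle replicate 1 (adjusted p = 0.0869 for Spib, 0.112 for Bach2), vehicle replicate 2 (0.0890 for Spib, 0.122 for Bach2) or PM replicate 1 (0.205 for Spib, 0.348 for Bach2) was left out, and both were called in the other 10 of 13 alternatives.

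The early factors Tcf3 and Foxo1 fell closer to the threshold. Tcf3 was at 720 and 572 CPM with vehicle and at 347 and 376 CPM with PM (log2 fold change -0.75, SE 0.21, adjusted p = 0.0426, edgeR). Foxo1 was at 157 and 171 CPM with vehicle and at 77.6 and 104 CPM with PM (log2 fold change -0.83, SE 0.24, adjusted p = 0.0486, edgeR). In neither gene did the groups overlap. The direction was the same in all 13 alternatives for both, but Tcf3 was called in 5 and Foxo1 in 4 of them. Tcf3 was not called when any 1 library was left out (adjusted p = 0.218, 0.0801, 0.281 and 0.0971 without vehicle replicates 1 and 2 and PM replicates 1 and 2), and Foxo1 was not called without vehicle replicate 1 (0.115), vehicle replicate 2 (0.346) or PM replicate 1 (0.435).

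The other 5 members were not called. Pax5 was at 662, 619, 515 and 649 CPM (vehicle replicates 1 and 2, then PM replicates 1 and 2), the only member whose groups overlapped, with a log2 fold change of -0.07 (SE 0.21). Ebf1 was at 2817, 2333, 1864 and 2044 CPM, with a log2 fold change of -0.32 (SE 0.20, adjusted p = 0.409, edgeR). These core factors showed the smallest shifts of the 10. Pou2af1 was at 668, 486, 334 and 384 CPM (-0.59, adjusted p = 0.128) and Ets1 at 552, 404, 304 and 348 CPM (-0.45, adjusted p = 0.271). Pou2f2 was at 58.1, 106, 133 and 178 CPM, higher in both PM libraries (0.79, SE 0.26, adjusted p = 0.0898). The groups did not overlap for 9 of the 10 members, and they did not overlap for 48.0% of all genes with at least 10 UMIs.

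**Figure D2:**
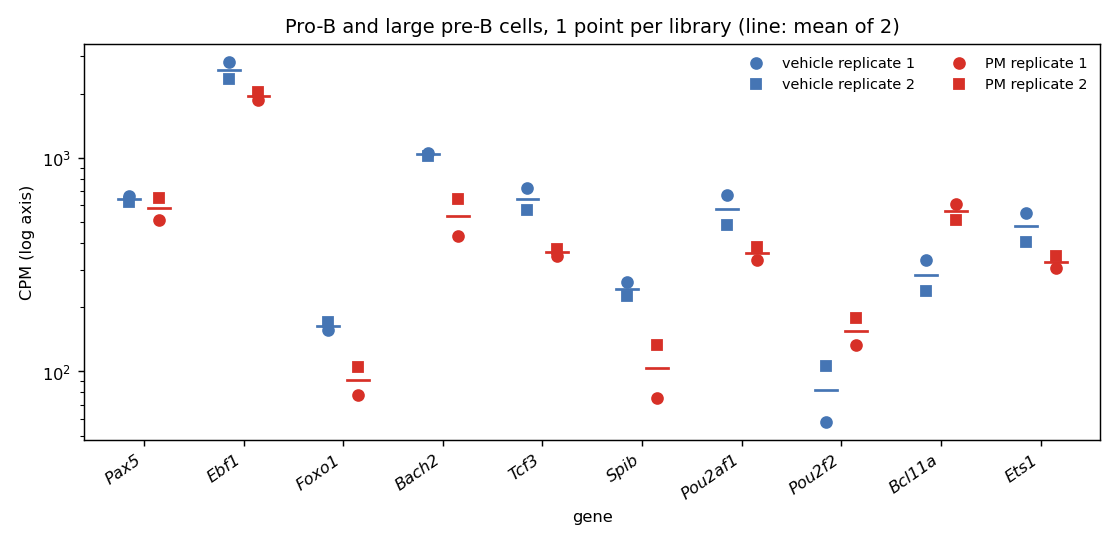
Level in CPM (log axis) of each of the 10 genes in pro-B and large pre-B cells, 1 point per library (blue, vehicle; red, PM; circles, replicate 1; squares, replicate 2) with a line at the mean of 2. Bcl11a is higher in both PM libraries (612 and 512 CPM) than in both vehicle libraries (331 and 238 CPM), while Spib, Bach2, Tcf3 and Foxo1 are lower.

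Some other values separated the groups in these cells, and others overlapped. Median UMIs per cell ran higher in both PM libraries (6530 and 8415.5) than in both vehicle libraries (4029 and 5802). Once called doublets were removed, 33 of 36 and 136 of 149 vehicle cells stayed, against 82 of 102 and 60 of 68 PM cells. The 20 cell cycle genes summed to 10.7 and 10.3 per 1000 UMIs with vehicle and to 7.37 and 9.76 with PM, with 0 of 20 called by edgeR. The markers of the pro-B and large pre-B stage summed to 13.7 and 14.3 per 1000 with vehicle and to 10.3 and 11.7 with PM, and those of mature B cells to 1.70 and 1.10 with vehicle and 1.39 and 1.40 with PM. Markers of small pre-B and immature B cells, the stage in which the 4 genes that fell had their highest levels, summed to 12.9 and 11.6 per 1000 with vehicle and to 8.72 and 9.58 with PM, and the general B cell markers to 12.9 and 10.8 with vehicle and 9.11 and 9.44 with PM. Handling stress genes summed to 4.02 and 3.80 per 1000 with vehicle and 4.61 and 4.53 with PM (12 tested, 2 higher and 4 lower). Neutrophil transcripts were at 1.81, 1.35, 4.59 and 1.30 per 1000 and erythroid transcripts at 0.145, 0.766, 0.315 and 2.42 per 1000 in the same order of libraries (0 of 10 and 1 of 5 tested genes called). T cell transcripts stayed at or below 0.0485 per 1000, and immunoglobulin constant genes were at 3.85 to 5.18 per 1000 (3 of 10 tested higher). Apart from the test with called doublets removed, the part of these values in the changes of the members was not tested.

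The 5 genes that were called lie on 5 chromosomes, and the bases just before their starts are shown to give the sequence context of the called members. Each window is the 250 bases upstream of the RefSeq start (build GRCm38.p6), read 5′ to 3′ on the strand of the gene. Capitals mark E-boxes (CANNTG, the motif of E proteins such as those of Tcf3) and the core of ETS family motifs (GGAA or TTCC, the motif of Spib and Ets1). The Bcl11a window is chr11:24080445-24080694 on the plus strand and holds 25 exonic bases of the annotated gene (chr11:24078056-24174123). The Spib window is chr7:44532072-44532321 on the minus strand, directly upstream of the gene (chr7:44525993-44532071). The Bach2 window is chr4:32417185-32417434 on the plus strand, inside the annotated gene (chr4:32238804-32586108) with 0 exonic bases. The Tcf3 window is chr10:80433636-80433885 on the minus strand with 12 exonic bases (gene chr10:80409514-80433647), and the Foxo1 window is chr3:52268087-52268336 on the plus strand with 1 exonic base (gene chr3:52268336-52353221).
Bcl11a: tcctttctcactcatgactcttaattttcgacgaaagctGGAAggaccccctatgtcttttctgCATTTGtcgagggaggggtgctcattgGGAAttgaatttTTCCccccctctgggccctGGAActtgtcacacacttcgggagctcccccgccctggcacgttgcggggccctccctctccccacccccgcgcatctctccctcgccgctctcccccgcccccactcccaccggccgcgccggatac
Spib: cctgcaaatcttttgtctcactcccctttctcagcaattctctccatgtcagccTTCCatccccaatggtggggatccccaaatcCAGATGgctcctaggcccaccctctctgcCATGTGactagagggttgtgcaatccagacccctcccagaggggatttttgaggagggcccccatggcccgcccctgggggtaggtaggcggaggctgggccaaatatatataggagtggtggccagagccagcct
Bach2: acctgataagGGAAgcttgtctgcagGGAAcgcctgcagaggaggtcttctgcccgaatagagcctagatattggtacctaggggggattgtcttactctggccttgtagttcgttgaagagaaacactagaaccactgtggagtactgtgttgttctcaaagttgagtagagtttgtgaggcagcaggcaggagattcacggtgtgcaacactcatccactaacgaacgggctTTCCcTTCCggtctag
Tcf3: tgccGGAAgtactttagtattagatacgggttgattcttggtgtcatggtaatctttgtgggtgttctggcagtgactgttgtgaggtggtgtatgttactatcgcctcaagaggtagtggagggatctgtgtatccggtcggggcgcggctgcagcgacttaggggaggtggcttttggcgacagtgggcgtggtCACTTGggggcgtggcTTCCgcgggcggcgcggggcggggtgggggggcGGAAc
Foxo1: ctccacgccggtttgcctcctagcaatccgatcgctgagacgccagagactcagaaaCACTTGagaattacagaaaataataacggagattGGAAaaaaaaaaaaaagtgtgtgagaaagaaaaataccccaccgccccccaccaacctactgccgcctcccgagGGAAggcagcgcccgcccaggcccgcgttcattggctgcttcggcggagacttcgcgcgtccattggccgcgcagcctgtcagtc

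Both strands were searched. Of the 9 members with a promoter entry, 8 held an E-box and 9 an ETS core in any of their windows. Counted per window, 66.2% and 93.4% of 32851 promoters of the same length did. Ebf1 had a further window with 0 E-boxes, all of whose 250 bases were exonic. Bach2, whose window has 4 ETS cores, was the member without an E-box. The octamer ATGCAAAT, the motif of Pou2f2, and the forkhead motif GTAAACA were in the windows of 0 of the 9 members and in 1.60% and 3.17% of all promoters. TGACCA, a Bcl11a motif, was found in the Tcf3 window (11.4% of all promoters), where it overlaps the E-box. Ets1 was not analysed here for its promoter.

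The other members lie elsewhere in the genome (GRCm38 annotation): Pax5 at chr4:44524757-44710487 on the minus strand, Ebf1 at chr11:44617317-45008091 on the plus strand, Pou2af1 at chr9:51213708-51240080 on the plus strand, Pou2f2 at chr7:25087344-25179726 on the minus strand and Ets1 at chr9:32636221-32757820 on the plus strand. Bach2 shares its strand with the transcript Bach2it1 and Pou2af1 with Gm47828, so that reads in the shared stretch are uncertain for these genes. Of the members that were called, Foxo1, Bach2 and Bcl11a also overlap genes on the opposite strand.

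In small pre-B and immature B cells, the directions of several members were alike but 0 of 10 were called, where 0.773% of 3236 genes were. Without adjustment, 1 member was higher and 2 were lower at p under 0.05 in the edgeR test, and DESeq2 called 0. The median log2 fold change was -0.10, against 0.00 over all genes. The sums were 98499 and 910955 UMIs with vehicle and 170137 and 145673 with PM, so that 3 of the 4 libraries were shallow.

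Bcl11a was again higher in both PM libraries, at 355 and 456.7 CPM with vehicle and 758 and 686 CPM with PM (log2 fold change 0.84, SE 0.20, adjusted p = 0.0947, edgeR). It was called without PM replicate 2 (0.91, adjusted p = 0.0111) and in the larger cluster of the stage alone (0.88, adjusted p = 0.0115), an alternative chosen after seeing the data. Spib was at 782 and 1065 CPM with vehicle and 699 and 535 CPM with PM (-0.55, SE 0.22, adjusted p = 0.346), and it was called in the larger cluster alone (-0.69, adjusted p = 0.0492). Ets1 was at 548 and 559 CPM with vehicle and 300.0 and 384 CPM with PM (-0.64, SE 0.21, adjusted p = 0.230). For all 3 genes the groups did not overlap. Bach2 was at 2833, 2084, 1775 and 2025 CPM, Tcf3 at 721, 676, 600.0 and 604 CPM and Pou2af1 at 904, 797, 723 and 590 CPM, each lower in both PM libraries, with log2 fold changes from -0.27 to -0.13. Ebf1 was slightly higher with PM (4812 and 5017 against 5237 and 5917 CPM, 0.26, SE 0.13, adjusted p = 0.499). Pax5 (1228, 1220, 1117 and 1263 CPM), Foxo1 (274, 394, 294 and 371 CPM) and Pou2f2 (437, 532, 488 and 632 CPM) overlapped between the groups. In all, 7 of the 10 members did not overlap, against 38.6% of genes with at least 10 UMIs.

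Mature B cells were the deepest of the 3 stages, at 368341 to 2707044 UMIs per library. Of the 10 members 0 were called, against 1.19% of 9124 genes. At an unadjusted p under 0.05 in edgeR, 1 member was higher and 3 were lower, and DESeq2 called 0. Ets1 was at 1127 and 949 CPM with vehicle and 752 and 806 CPM with PM (log2 fold change -0.43, SE 0.14, adjusted p = 0.117, edgeR). Bach2 was at 619 and 586 CPM against 464 and 478 CPM (-0.38, SE 0.13, adjusted p = 0.186), and Bcl11a at 665 and 861 CPM against 992 and 1013 CPM (0.35, SE 0.14, adjusted p = 0.234). Spib was at 424 and 528 CPM with vehicle and 348 and 423 CPM with PM (-0.35, SE 0.14, adjusted p = 0.253). These were the 4 members whose groups did not overlap, against 44.1% of genes with at least 10 UMIs.

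The other members of mature B cells overlapped between the groups. Pax5 was at 923, 994, 944 and 981 CPM (log2 fold change -0.02, SE 0.13) and Ebf1 at 1776, 1828, 1979 and 1772 CPM (0.03, SE 0.13). Foxo1 ranged from 187 to 244 CPM, Tcf3 from 193 to 250 CPM, Pou2af1 from 389 to 491 CPM and Pou2f2 from 834 to 1071 CPM. The median log2 fold change of the 10 members was -0.16, against 0.00 over all genes.

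**Figure D3:**
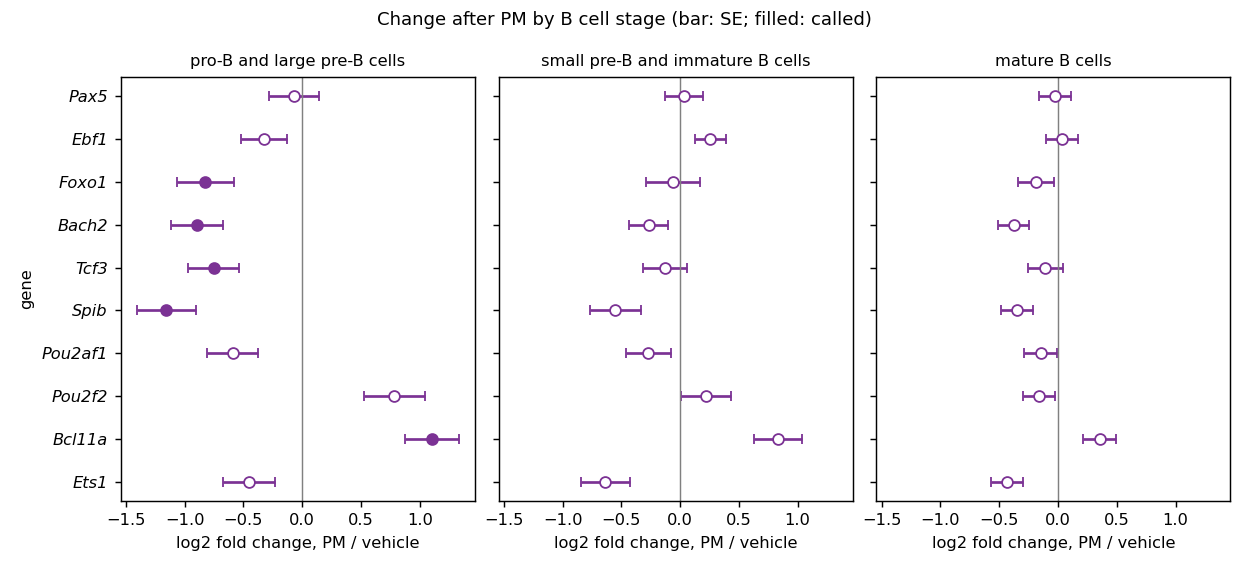
Log2 fold change of each gene after PM (points; bars, SE of the edgeR fit) in pro-B and large pre-B cells, small pre-B and immature B cells, and mature B cells; filled points were called. Bcl11a lies right of 0 in all 3 stages (1.10, 0.84 and 0.35). Spib, Bach2, Ets1, Foxo1, Tcf3 and Pou2af1 lie left of 0 in all 3, and Pax5 stays near 0 (-0.07, 0.03 and -0.02).

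The neutrophil transcripts of PM replicate 1 were raised in these stages too, at 5.46 per 1000 UMIs in small pre-B and immature B cells (2.82 to 2.94 in the other 3 libraries) and at 5.18 in mature B cells (2.43 to 3.19). Of these genes 0 of 10 and 1 of 11 were called by edgeR. Cell cycle genes were at 0.281 to 0.441 per 1000 in small pre-B and immature B cells and at 0.315 to 0.453 in mature B cells, with 0 called. Handling stress genes were at 5.31 and 3.91 per 1000 with vehicle and 2.81 and 3.58 with PM in small pre-B and immature B cells, and at 2.79 to 3.43 in mature B cells, with 0 of 8 and 1 of 14 called. Erythroid transcripts reached 2.89 per 1000 in mature B cells of PM replicate 2 and were at most 0.394 in the other libraries of either stage. T cell transcripts were at most 0.0823 per 1000, and immunoglobulin constant genes were at 17.1 to 20.9 per 1000 in both stages (2 of 8 and 0 of 12 called). Their part in the members' levels was not tested.

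The same comparison within clusters gave the level at a finer resolution, with no test. The share of all genes whose groups do not overlap was not computed per cluster, so the counts below are not read as a result. Over whole stages that share was 38.6% to 48.0%. There were 6 clusters with at least 10 cells in every library. Bach2 and Ets1 were lower in both PM libraries than in both vehicle libraries in all 6 clusters. Spib was lower in this way in 5 of 6 and Bcl11a higher in 5 of 6. The exception for both was the pro-B cluster led by Vpreb1, which held 10 to 32 cells per library. The smaller cluster of small pre-B and immature B cells, not an exception, was also thin. It held 11 and 141 cells with vehicle and 19 and 14 with PM. In the cycling pro-B cluster Bcl11a was at 197 and 210 CPM with vehicle and 560 and 488 CPM with PM. In the Vpreb1 cluster it was at 1112 and 509 CPM with vehicle and 1017 and 932 CPM with PM, and Spib rested on 1 to 11 UMIs per library. The cycling cluster held 69.6% to 80.9% of the pro-B and large pre-B cells of each library. The other members separated in fewer of the 6 clusters. Tcf3, Foxo1, Pou2af1 and Pax5 did so only toward lower levels with PM, and Pou2f2 and Ebf1 in either direction depending on the cluster.

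**Figure D4:**
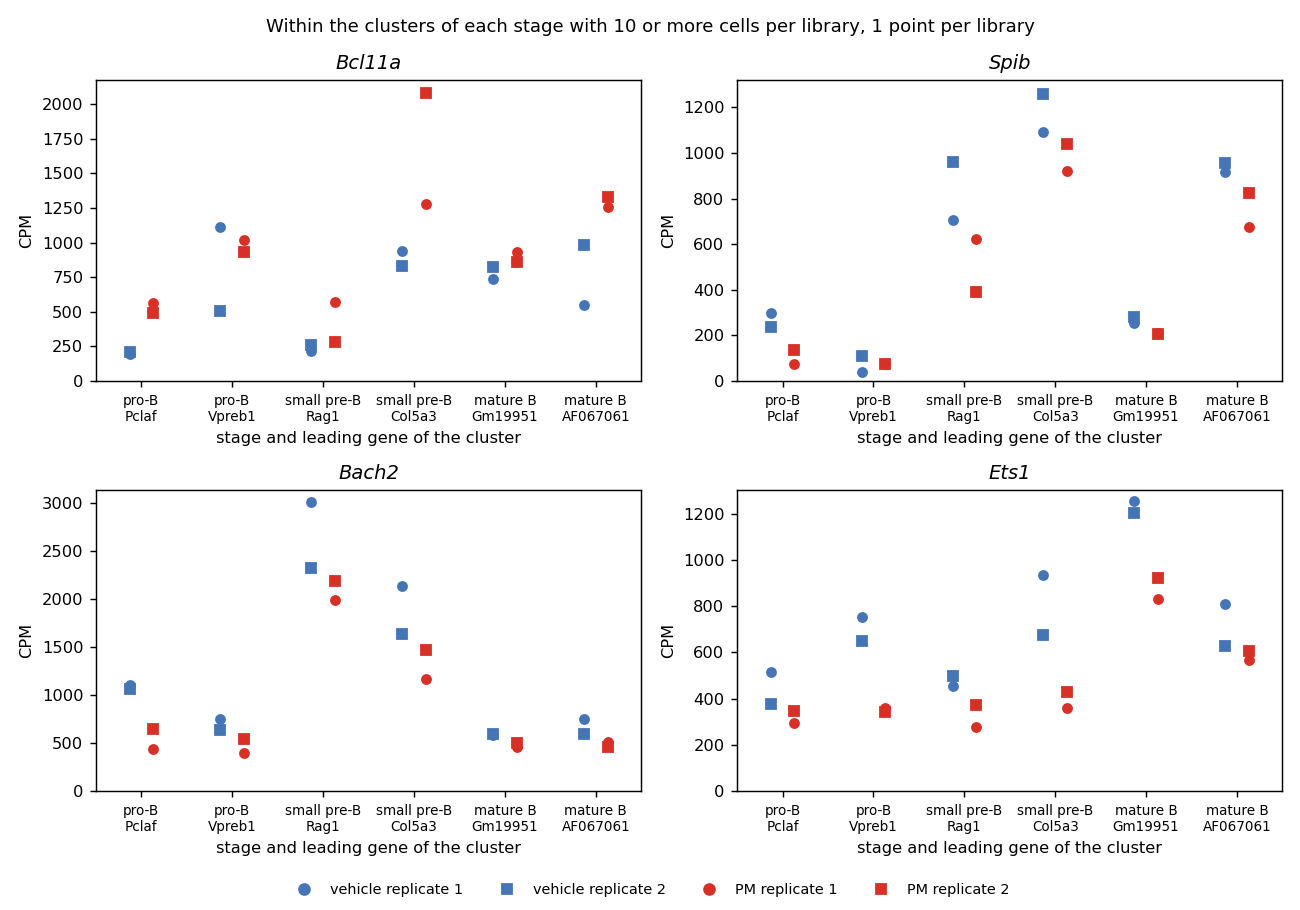
Level in CPM of Bcl11a, Spib, Bach2 and Ets1 within the 6 clusters with at least 10 cells in every library, named by stage and leading gene, 1 point per library (blue, vehicle; red, PM). In the cycling pro-B cluster (Pclaf) Bcl11a is at 197 and 210 CPM with vehicle and 560 and 488 CPM with PM, and Bach2 and Ets1 are lower with PM in every cluster. The clusters come from the same mice, and the share of all genes that separate in this way was not computed per cluster. The members not drawn separated in fewer of the 6 clusters.

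Whether the change differed between stages was tested directly, by the interaction of stage and PM with the library as a block. The difference between pro-B and large pre-B cells and mature B cells was called for 2 of the 10 members at an adjusted p under 0.05, against 3.81% of 9432 genes. For Bcl11a the change was larger by 0.84 on the log2 scale (SE 0.21, adjusted p = 0.00596, edgeR), and for Pou2f2 by 0.96 (SE 0.25, adjusted p = 0.00743, edgeR). The differences for Spib (-0.74, adjusted p = 0.0642), Tcf3 (-0.59, adjusted p = 0.110) and Bach2 (-0.53, adjusted p = 0.115) did not pass. Each passed in some alternatives: Bach2 without vehicle replicate 1 (-0.60, adjusted p = 0.0366), Tcf3 without vehicle replicate 2 (-0.96, adjusted p = 0.0289) and in the narrower stages (-0.77, adjusted p = 0.0465), and Spib with no filter on low counts (-0.82, adjusted p = 0.0418), at resolution 0.5 (-0.75, adjusted p = 0.0490) and in the narrower stages (-0.85, adjusted p = 0.0383). Without PM replicate 1 neither gene passed (adjusted p = 0.466 for Bcl11a and 0.157 for Pou2f2), nor without PM replicate 2 (0.0940 and 0.171). Bcl11a also did not pass without vehicle replicate 2 (0.35, adjusted p = 0.545), nor Pou2f2 without vehicle replicate 1 (0.72, adjusted p = 0.0601).

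By edgeR, 0 of the 10 members were called for a difference between small pre-B and immature B cells and mature B cells, where 0.212% of genes were called, or between pro-B and large pre-B cells and small pre-B and immature B cells, where 1.51% were. Over all genes, 685 and 1127 of 9432 had an unadjusted p under 0.05 in these contrasts, and DESeq2 was not run on them. The Bach2 difference in the last contrast was -0.58 (SE 0.20, adjusted p = 0.132). It passed without vehicle replicate 1 (-0.78, adjusted p = 0.00374), and that of Ebf1 passed without vehicle replicate 2 (-0.71, adjusted p = 0.0149).

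Plasma cells held next to no UMIs of 4 of the 10 genes. There Pax5 had 0, 0, 1 and 0 UMIs, Spib 0, 2, 0 and 0, Bach2 3, 1, 5 and 6 and Bcl11a 0, 2, 8 and 1 (vehicle, then PM), out of 983007 to 1273218 UMIs per library. Immunoglobulin genes took 53.6% to 62.1% of those UMIs. Doublet scores marked 38.2% of the cells in the cluster that held most plasma cells and 29.8% in the Rhox5 cluster, and with marked cells removed PM replicate 2 went from 63 to 17 plasma cells and from 31 to 12 myeloma cells, with 0 members called in either population. The members tested in plasma cells were 6, and 0 of them were called, against 0.0159% of 6286 genes. At an unadjusted p under 0.05 in edgeR, 0 were higher and 2 were lower, and DESeq2 called 0.

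Pou2af1 and Pou2f2 were those 2. Pou2af1 was at 475 and 318 CPM with vehicle and 222 and 216 CPM with PM (log2 fold change -0.98, SE 0.20, adjusted p = 0.342, edgeR). It was called without vehicle replicate 2 (-1.19, adjusted p = 0.00134) and with no filter on low counts (-0.996, adjusted p = 0.000710). Pou2f2 was at 144 and 132 CPM with vehicle and 88.8 and 93.3 CPM with PM (-0.74, SE 0.20, adjusted p = 0.609). Foxo1 was at 46.8 and 53.5 CPM with vehicle and 42.4 and 37.7 CPM with PM (-0.47, SE 0.25, adjusted p = 0.841). The groups did not overlap for 4 of 8 members with at least 10 UMIs, where 36.2% of all such genes did not. Ebf1 (38.6 to 41.6 CPM), Tcf3 (36.9 to 40.7 CPM) and Ets1 (45.2 to 63.7 CPM) overlapped. The median log2 fold change of the 6 was -0.40, against 0.00 over all genes.

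Transcripts of other cells were present in the plasma cell sums. Neutrophil transcripts were at 14.8 and 6.59 per 1000 UMIs with vehicle and 34.4 and 9.42 with PM, and markers of B cells at 1.77 and 1.39 with vehicle and 3.77 and 6.26 with PM. Their part in the levels was not tested. Handling stress genes were at 5.28, 4.00, 2.89 and 4.37 per 1000, cell cycle genes at 0.170 to 0.483, erythroid transcripts at most 0.0612 and T cell transcripts at most 0.0236, and immunoglobulin constant genes at 534 to 618 per 1000. None of the genes tested in the lists of these 6 kinds of transcripts was called by edgeR.

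In myeloma cells 6 members were tested and 0 were called, against 0.143% of 8372 genes. At an unadjusted p under 0.05 in edgeR, 1 was higher and 0 were lower, and DESeq2 called 0. That 1 was Pax5, with 3 and 9 UMIs with vehicle and 59 and 20 UMIs with PM. Pax5 passed the filter on low counts only through the PM libraries, so the test could find it in no other direction. The levels were 4.65 and 7.24 CPM against 17.8 and 17.3 CPM, without overlap (log2 fold change 1.45, SE 0.46, adjusted p = 0.268, edgeR). The direction was the same in all 11 alternatives, which reuse the same libraries, with 0 calls. These levels were far under the 515 to 1263 CPM of the 3 B cell stages.

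The other members of the myeloma cells overlapped or were nearly silent. Pou2af1 was at 360 and 225 CPM with vehicle and 203 and 270 CPM with PM, Tcf3 at 71.3, 82.1, 73.0 and 87.3 CPM and Foxo1 at 60.5, 44.3, 51.9 and 70.0 CPM. Pou2f2 ranged from 24.1 to 45.0 CPM and Ets1 from 8.85 to 24.8 CPM. Ebf1 had 0, 0, 11 and 2 UMIs, Bach2 0, 2, 3 and 4, Spib 0, 0, 5 and 0 and Bcl11a 0, 0, 25 and 0. All 25 Bcl11a UMIs and all 5 Spib UMIs lay in PM replicate 1, the library whose myeloma cells also held neutrophil transcripts at 15.7 per 1000 UMIs, against 1.31, 4.08 and 1.72 in the others. Mean levels in neutrophils were 29.0 CPM for Bcl11a and 0.781 CPM for Spib, against 883 and 431 CPM in mature B cells. The source of these UMIs was not tested. The groups did not overlap for 2 of 8 members with at least 10 UMIs, Pax5 and Ebf1, against 37.6% of all such genes. The median log2 fold change of the 6 members tested was 0.09, against 0.00 over all genes.

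Rhox5 itself was at 608 and 546 CPM with vehicle and 698 and 543 CPM with PM in these cells, a value fixed in part by the rule that named them. Cell cycle genes summed to 3.33 and 3.52 per 1000 UMIs with vehicle and 2.68 and 2.84 with PM (0 of 20 called by edgeR). Handling stress genes were at 3.31 to 4.43, erythroid transcripts at most 0.0942, T cell transcripts at most 0.0115 and immunoglobulin constant genes at 40.3 to 51.4 per 1000, with 0 called. Their part in the members' levels was not tested.

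**Figure D5:**
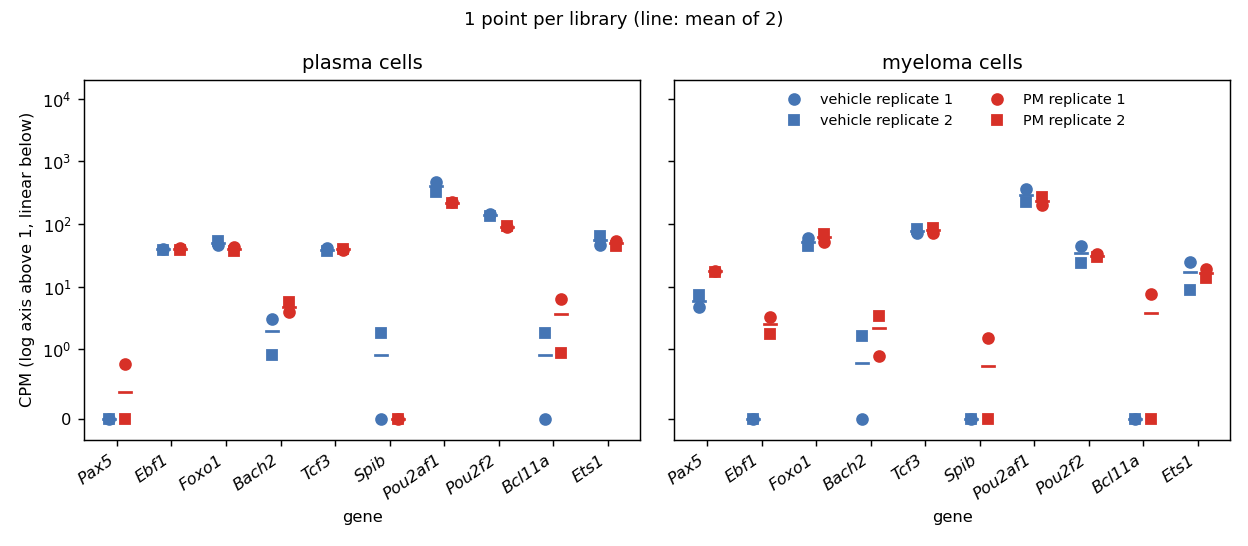
Level in CPM (log axis above 1, linear below) of each of the 10 genes in plasma cells and in myeloma cells, 1 point per library (blue, vehicle; red, PM) with a line at the mean of 2. Pou2af1 is lower in both PM libraries of plasma cells (222 and 216 against 475 and 318 CPM), and Pax5 is higher in both PM libraries of myeloma cells (17.8 and 17.3 against 4.65 and 7.24 CPM). No member was called in either population, and Pax5 entered the test in myeloma cells only through the PM libraries.

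The members are also used outside the B lineage, and the same test was made in 11 other cell types. Of 74 pairs of a member and a cell type, 5 were called higher and 0 lower (6.76%), against 1.12% of all tests in these cell types. Among them, Pax5 in T cells passed the filter on low counts only through the PM libraries. DESeq2 also called 5, but not the same set, with 4 in neutrophils, 1 in monocytes and their progenitors and 0 in T cells. Bcl11a was called in neutrophils, at 20.2 and 22.9 CPM with vehicle and 38.2 and 34.9 CPM with PM (log2 fold change 0.64, SE 0.12, adjusted p = 0.0146, edgeR), where 6.06% of genes were called higher. It was also called in monocytes and their progenitors, at 62.7 and 76.5 CPM with vehicle and 106 and 131 CPM with PM (0.74, SE 0.13, adjusted p = 0.0430, edgeR), where 0.683% of genes were called higher. In both cell types the PM libraries lay above the vehicle libraries. Some neutrophil clusters were filled unevenly by the 2 groups. A cluster led by Fxyd7, Mpzl3 and Rsad2 held 243 and 355 cells with vehicle and 1730 and 1414 with PM. A cluster led by Cmpk2 and Rsad2 held 152 and 108 against 1277 and 664. A cluster led by Prok2 held 1518 and 804 against 586 and 655. Others held many cells of every library, such as 1053 and 894 against 1183 and 794 in a cluster led by Zmpste24. The neutrophil call ended when vehicle replicate 1 was left out (0.56, adjusted p = 0.201), and the monocyte call without PM replicate 1 (0.85, adjusted p = 0.121) or PM replicate 2 (0.64, adjusted p = 0.106).

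The other 3 calls were of very low levels. In neutrophils Foxo1 was at 0.282 and 0.711 CPM with vehicle and 1.95 and 1.66 CPM with PM (adjusted p = 0.0313, edgeR), and Pou2f2 at 2.39 and 2.16 CPM with vehicle and 6.15 and 4.36 CPM with PM (adjusted p = 0.0258). With called doublets removed, neither was called (adjusted p = 0.0677 and 0.183), and neither was called without vehicle replicate 1 (0.213 and 0.204) nor Pou2f2 without PM replicate 1 (0.113). In T cells Pax5 had 0 UMIs in both vehicle libraries, where 3 UMIs would be 3.74 and 3.25 CPM. With PM it had 35 and 20 UMIs, or 11.7 and 10.0 CPM, in 2.22% and 0.847% of the cells. It was called higher (adjusted p = 0.0336, edgeR), where 0.0525% of genes were. The gene passed the filter on low counts only through the PM libraries, so it could be called in no other direction. Leaving out vehicle replicate 1 (adjusted p = 0.0849) or PM replicate 2 (0.117) ended the call, and the gene was not tested with called doublets removed or without PM replicate 1. DESeq2 did not call it and gave no adjusted p. The B cell markers of the T cells summed to 0.288 and 0.334 per 1000 UMIs with vehicle and 0.537 and 0.356 with PM, and those of neutrophils to 0.0549 and 0.0851 against 0.127 and 0.0947. Their part in these 3 calls was not tested.

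Genes of the same pathways were read from fixed lists, which were chosen with earlier results of these data known. Over all genes tested in pro-B and large pre-B cells, 2.33% were called higher and 2.09% lower and the median log2 fold change was 0.00, and the list counts stand beside these values. Among other B cell transcription factors in pro-B and large pre-B cells, 2 of 35 tested were called higher and 4 lower, with a median log2 fold change of -0.31. Myc, a driver of growth, went from 17.4 and 73.0 CPM to 175 and 145 CPM (log2 fold change 1.47, SE 0.31, adjusted p = 0.00867, edgeR), and Runx3 from 34.8 and 15.9 to 52.8 and 62.4 CPM (1.61, SE 0.38, adjusted p = 0.0138). The quiescence factor Klf2 fell from 290 and 192 to 79.7 and 129 CPM (-1.08), Sox4, needed for pro-B cell survival, from 1440 and 935 to 462 and 639 CPM (-1.02), and the NF-kappaB subunit gene Rel from 128 and 91.7 to 47.4 and 51.5 CPM (-0.99). Of 13 tested inhibitors and plasma cell factors, 0 were higher and 1 was lower (median 0.05). That gene, Irf4, which acts in both pre-B and plasma cells, fell from 325 and 257 to 125 and 172 CPM (-0.88, adjusted p = 0.0301, edgeR). The lists share genes, and Irf4 is also 1 of the 4 other factors called lower. DESeq2 called 0 other factors higher and 2 lower, and 0 of the inhibitors and plasma cell factors in either direction.

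The targets of Pax5 and Ebf1 were called in both directions by edgeR, and only lower by DESeq2. Of 32 tested genes activated by Pax5 and Ebf1, 5 were called higher and 4 lower (median -0.20) in pro-B and large pre-B cells. Ms4a1, which encodes CD20, rose from 11.6 and 2.81 CPM to 55.0 and 73.2 CPM (log2 fold change 3.94, SE 0.51, adjusted p = 3.79e-05, edgeR). It passed the filter on low counts only through the PM libraries, so it could be called in no other direction. The count of 5 higher is therefore not read as a shift. Vpreb2 of the pre-B cell receptor rose from 58.1 and 99.2 to 196 and 172 CPM (1.12) and Cd22 from 29.0 and 24.3 to 51.7 and 58.3 CPM (1.16). Blnk, the adaptor of pre-B cell receptor signalling, fell from 842 and 526 to 302 and 243 CPM (-1.22, adjusted p = 0.00366), and Dok3 (-1.10) and Fcrla (-1.05) fell as well. DESeq2 called 0 of these genes higher and 4 lower.

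Targets of Foxo1 were called in 1 direction. Of 17 tested, 0 were higher and 7 lower, with a median log2 fold change of -0.85. The 7 include Klf2, which was also counted among the other factors above. Rag2, part of the recombinase that joins immunoglobulin gene segments, fell from 244 and 151 CPM to 59.3 and 36.6 CPM (-1.83, SE 0.29, adjusted p = 0.000465, edgeR). The cell cycle regulators Ccng2 (168 and 181 to 63.6 and 78.6 CPM, -1.26) and Gadd45a (29.0 and 57.1 to 12.9 and 25.8 CPM, -1.38) fell too. For these genes, at an unadjusted p under 0.05, 1 was higher and 9 were lower, and DESeq2 called 0 higher and 4 lower. Of 18 genes repressed by Pax5, 8 were tested, of which 2 were higher and 0 lower (median 0.71). Ly6a, which encodes the surface protein Sca-1, had 0 and 4.68 CPM with vehicle and 75.4 and 52.9 CPM with PM (4.01, SE 0.51, adjusted p = 3.79e-05, edgeR). Emb rose from 11.6 and 19.6 to 84.0 and 32.5 CPM (1.75, adjusted p = 0.0306, edgeR). Ly6a and Emb passed the filter on low counts only through the PM libraries, so they could be called in no other direction. The count and median of this list are therefore not read as a shift. DESeq2 called 0 genes of this list.

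In the later populations few list genes were called, where 0.773% (small pre-B and immature B cells), 1.19% (mature B cells), 0.0159% (plasma cells) and 0.143% (myeloma cells) of all genes were and the median over all genes was 0.00. In small pre-B and immature B cells Ly6a was at 0 and 2.20 CPM with vehicle and 270 and 281 CPM with PM (adjusted p = 2.03e-06, edgeR), the 1 gene called of 4 tested in its list (median 0.12). Here too Ly6a passed the filter on low counts only through the PM libraries. By edgeR, 0 genes were called among 26 other factors (median -0.07), 9 inhibitors (0.02), 27 targets of Pax5 and Ebf1 (0.14) and 18 targets of Foxo1 (0.13), where 7, 1, 7 and 3 had an unadjusted p under 0.05, and DESeq2 called 0 in each. In mature B cells the complement receptor gene Cr2 rose (225 and 211 to 351 and 387 CPM, log2 fold change 0.74, adjusted p = 0.00247), the 1 call of 33 targets of Pax5 and Ebf1 (median -0.15). Of 19 tested targets of Foxo1, 0 were higher and 1 was lower (median -0.15). Emb rose (5.43 and 13.5 to 38.0 and 27.8 CPM, 1.54, adjusted p = 0.0189), the 1 call of 10 genes repressed by Pax5 (median 0.66). Emb passed the filter on low counts only through the PM libraries here as well, and the median is not read as a shift. None of 37 other factors (median 0.03) or 14 inhibitors (0.01) was called by edgeR, with 4 and 1 at an unadjusted p under 0.05. DESeq2 called 0 genes of the 5 lists in mature B cells.

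In plasma cells 0 genes of the 5 lists were called by edgeR or DESeq2, with 7 of 29 other factors, 2 of 12 inhibitors, 6 of 20 targets of Pax5 and Ebf1, 3 of 10 targets of Foxo1 and 5 of 13 genes repressed by Pax5 at an unadjusted p under 0.05. Their median log2 fold changes ran from -0.22 to 0.25. In myeloma cells Ly6a rose from 3.10 and 1.61 CPM to 52.2 and 30.2 CPM (log2 fold change 4.27, SE 0.52, adjusted p = 0.000570, edgeR), the 1 call of 9 tested genes repressed by Pax5 (median 1.15). In these cells as well, Ly6a passed the filter on low counts only through the PM libraries, and the median is not read as a shift. The other 4 lists had 0 calls there by edgeR and DESeq2, with 10 of 27 other factors, 2 of 14 inhibitors, 1 of 11 targets of Pax5 and Ebf1 and 4 of 9 targets of Foxo1 at an unadjusted p under 0.05, and medians of 0.07, -0.10, 0.45 and 0.19.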

How the data were processed

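Marrow of 4 tumour-bearing mice (2 vehicle, 2 PM) was profiled by 10x 3' single-cell RNA-seq, 1 library per mouse. The authors deposited raw UMI counts per gene and barcode, made with Cell Ranger. The paper names GRCm38 and the submitters' processing notes name GRCm39 and STAR, so member coordinates are those of GRCm38 and no read was placed here. Cells under 300 genes or over 20% mitochondrial counts were dropped. They were clustered without the 10 members (scanpy 1.11.5; 2500 variable genes, 30 components, 15 neighbours, leidenalg 0.10.2 at resolution 1), and B cells were clustered again (2000 genes, 20 components, resolution 0.8). Clusters were named from fixed markers. Those that failed the naming rules were left unnamed and out of every population, 5033 cells (2049 and 1368 with vehicle, 977 and 639 with PM). Scrublet-type doublet scores were computed, the top share per library (0.8% per 1000 barcodes) was marked, and marked cells were kept in the main analysis and removed in an alternative.

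Counts were summed per library and population and tested with edgeR 4.0.16 (TMM, filterByExpr, quasi-likelihood test) in R 4.3.3, with Benjamini-Hochberg adjustment over all genes tested, two-sided, and DESeq2 1.42.0 as an alternative. With 2 libraries per group, p-values rest on the spread between single mice. The edgeR fit drew each gene's spread toward a trend over all genes. Genes were called at an adjusted p under 0.05 and an absolute log2 fold change over 0.5. Stage differences were tested at the adjusted p alone. Medians are over genes tested. Only populations with at least 10 cells in every library were used, which left out endothelial cells. The script was tested on simulated data. The members and lists were chosen with earlier results of these data known. Genes named beside the members were, per list and population, at most 3 that rose and 3 that fell by absolute change among those called (mean level 20 CPM or more), and for likeness the nearest genes. Some genes that this rule selects are not reported here.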

Additional observations from a re-analysis of the deposited data

Results flagged for a closer look

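The change of Bcl11a after PM was larger in pro-B and large pre-B cells than in mature B cells by 0.84 on the log2 scale (SE 0.21, adjusted p = 0.00596, edgeR interaction of stage and PM). That of Pou2f2 differed in the same contrast by 0.96 (SE 0.25, adjusted p = 0.00743, edgeR). Both were picked out because the PM effect differed between B cell stages in a test of the difference itself. Neither difference passed when either of the PM libraries was left out. Bcl11a was higher in the PM libraries in both stages, at 612 and 512 against 331 and 238 CPM in pro-B and large pre-B cells and at 992 and 1013 against 665 and 861 CPM in mature B cells. Pou2f2 was at 133 and 178 against 58.1 and 106 CPM in the first stage and overlapped between the groups in the second. In both stages neutrophil transcripts were highest in PM replicate 1 and erythroid transcripts in PM replicate 2, and their part was not tested.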

How the results depend on the processing

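Single members kept their direction in most alternatives, and no called change reversed. Of the recomputed fold changes of single members in the B, plasma and myeloma populations, 451 kept their direction and call status. Another 24 lost and 6 gained a call, and 31 changed direction with no call in either analysis. The members called in pro-B and large pre-B cells, 5 in the main test, numbered 3 with DESeq2, with called doublets removed and under stricter limits on cells (500 genes, 10% mitochondrial counts), and 0 to 4 when 1 library was left out. Genes called there, 359, were 112 with DESeq2, 207 without called doublets and 62 to 426 with 1 library left out. In small pre-B and immature B cells 2 members were called in the larger cluster alone and 0 to 1 with 1 library left out. Genes called there, 25, were 14 with DESeq2, 57 with no filter, 50 with the replicate block, 97 in the larger cluster and 31 to 80 with 1 library left out. In mature B cells the 109 genes were 8 with DESeq2, 11 with the replicate block, 67 under the stricter limits on cells and 41 to 165 with 1 library left out. In plasma cells 1 member was called with no filter and 0 to 1 with 1 library left out. The 1 gene called there became 9 with DESeq2, 91 with no filter, 23 with the block, 6 without doublets, 4 under the stricter limits, 7 with myeloma cells taken by cluster and 48 to 157 with 1 library left out. In myeloma cells the 12 genes were 151 with no filter, 75 with the block, 48 without doublets, 54 by cluster and 3 to 222 with 1 library left out.

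The stage difference between pro-B and large pre-B cells and mature B cells was called for 2 members in the main test, for 4 in the narrower stages (adding Spib and Tcf3), for 3 with no filter and at resolution 0.5 (adding Spib), and for 0 to 2 with 1 library left out, where at most 1 of the 2 main calls remained. Between pro-B and large pre-B cells and small pre-B and immature B cells, 0 calls became 0 to 1 with 1 library left out. In the other cell types, 5 calls became 12 with no filter, 2 without doublets and 2 to 14 with 1 library left out. Resolution 0.5 left the small pre-B and immature B stage unnamed and gave no value for it. The narrower stages, a second clustering seed and a crossed pairing were chosen after seeing the data.

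Replicate numbers paired no samples by the labels, and with 2 pairs the correlation of same-numbered libraries was -0.00 in pro-B and large pre-B cells, 0.01 in small pre-B and immature B cells, -0.01 in mature B cells, 0.09 in plasma cells and -0.07 in myeloma cells. With the replicate block, Pou2f2 was called in pro-B and large pre-B cells (0.92, adjusted p = 0.0329, edgeR) and Bcl11a lost its call in monocytes (adjusted p = 0.0668). In neutrophils and erythroid cells, where the correlation was -0.19 and -0.13, a crossed pairing gave 8 calls of members in the other cell types in place of 5. The thinnest library, vehicle replicate 1, held 172172 UMIs in pro-B and large pre-B cells and 98499 in small pre-B and immature B cells, where 3 UMIs are 17.4 and 30.5 CPM. The cause of the changes between alternatives was not tested.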
